A study of Homo sapiens with 48 samples.

Results

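A set of 8 members of the kallikrein locus, KLK1, KLK2, KLK3, KLK4, KLK10, KLK11, KLK15 and the pseudogene KLKP1, were followed by RNA-Seq through 16 groups of cultured prostate cancer cells. They were taken by gene symbol from a table of 61815 genes, and 8 of 8 had counts enough to be among the 20009 genes tested. The cells were 22Rv1, a human castration-resistant prostate cancer line. All groups were grown as monolayers for 72 hours with either 500 nM SNX631, a selective inhibitor of the Mediator kinases CDK8 and CDK19, or its vehicle, 0.1% DMSO, with 3 biological replicate cultures per group and 48 libraries in all. Parental cells (Rv1-WT) and a derivative carrying a lentiviral firefly luciferase (Rv1-Luc) were treated in medium with fetal bovine serum (FBS), which contains androgens, and in androgen-depleted medium with charcoal-stripped serum (CSS), after 1 passage in CSS. The remaining 4 lines were treated in FBS and came from a CRISPR/Cas9 double knockout of CDK8 and CDK19 (dKO). dKO-19 and dKO-19M re-expressed wild-type or kinase-dead CDK19 from a lentivirus. dKO-8 and dKO-8M expressed wild-type or kinase-dead CDK8 in dKO cells that already held an insert-free vector. Each derivative was represented by 1 line, so that differences between lines cannot be told apart from differences between the cell populations behind them.

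Tissue kallikreins are secreted serine proteases encoded side by side on chromosome 19, and each is made as an inactive proenzyme that another protease must cut. KLK3 is prostate-specific antigen (PSA), the blood marker of prostate cancer, and in the luminal cells of the prostate KLK3 and KLK2 are classic genes switched on by androgen. KLK2, KLK4 and KLK15 have been described as proteases able to cut pro-KLK3, KLK1 is the kinin-releasing kallikrein of glandular tissue, and KLK10 and KLK11 lie farther along the locus.

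In the GENCODE v29 annotation of GRCh38 the members follow each other on chromosome 19 as KLK1 (50819148 to 50823787, minus strand), KLK15 (50825289 to 50837213, minus), KLK3 (50854915 to 50860764, plus), KLK2 (50861568 to 50880567, plus), KLKP1 (50882096 to 50896398, minus), KLK4 (50906352 to 50910738, minus), KLK10 (51012739 to 51020175, minus) and KLK11 (51022216 to 51028039, minus). KLKP1 is annotated as a transcribed unprocessed pseudogene and the other 7 as protein coding. KLK3 and KLK2 were the only members on the plus strand. Their upstream sequences, from RefSeq on GRCh38.p14, are printed because the levels of these 2 genes had the highest correlation of any pair of members over the groups. The regions are chr19:50854665-50854914 for KLK3 and chr19:50873189-50873438 for KLK2, both on the plus strand and both ending 1 base before the RefSeq transcription start. Capitals mark the 15 bases that came closest to the steroid hormone response element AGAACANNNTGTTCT on either strand.
KLK3 upstream: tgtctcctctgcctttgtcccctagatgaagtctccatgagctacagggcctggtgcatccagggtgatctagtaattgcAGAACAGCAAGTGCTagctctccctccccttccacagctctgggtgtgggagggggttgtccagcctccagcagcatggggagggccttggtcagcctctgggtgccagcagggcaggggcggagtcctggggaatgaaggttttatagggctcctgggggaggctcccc
KLK2 upstream: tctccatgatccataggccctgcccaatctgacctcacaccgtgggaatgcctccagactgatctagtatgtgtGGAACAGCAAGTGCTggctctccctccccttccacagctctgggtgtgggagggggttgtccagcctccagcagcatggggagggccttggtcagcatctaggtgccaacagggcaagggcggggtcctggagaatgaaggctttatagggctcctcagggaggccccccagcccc
The 2 regions had 205 identical bases in their alignment, or 82.0% of the 250 upstream bases, whereas the remaining 14 pairs of members with a RefSeq window shared between 51.6% and 58.4%. The marked element began 170 bases upstream of the KLK3 start and held 10 of the 12 defined letters, and in KLK2 it began 176 bases upstream and held 9. The only difference between these elements was A1G, with the KLK3 base first and positions counted from 1 at the first base of the element. Windows of 300 bases (250 upstream and 50 downstream of the start) were searched on both strands for the hexamers AGAACA or TGTTCT and for the 15-base element, which contains both hexamers. In all, 10 windows covered KLK2, KLK3, KLK4, KLK10, KLK11 and KLK15. A hexamer was found in 1 of them, that of KLK3, and in 14.8% of all 35116 RefSeq windows. At least 10 of 12 letters were matched in 1.41% of all windows and at least 9 in 10.8%. In the windows of KLK4, KLK10, KLK11 and KLK15 the best match held 6 to 8 letters. A match describes letters in the window only.

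The libraries held 13.2 to 31.5 M counts (in units of 1000000, median 21.4 M), and 3 counts, used here as the detection floor of a library, equalled 0.0981 to 0.221 CPM (counts per 1000000 counted). Levels are given as CPM scaled by trimmed mean of M values (TMM), and differences as log2 fold changes with their standard error (SE) from edgeR's quasi-likelihood test with 3 libraries per group. A gene was called changed at a Benjamini-Hochberg false discovery rate (FDR) below 0.01 over all 20009 genes and a fold change above 1.5. Where DESeq2 is given beside a count, genes to which it assigned no adjusted p were not among its calls, KLK10 in all but 2 comparisons included. The 10 luminal prostate markers summed to 2967 to 6596 CPM and were higher in sum under SNX631, without overlap, in 6 of 6 kinase-active arms (3315 to 3457 against 2967 to 3014 CPM in Rv1-WT FBS, 6057 to 6116 against 5129 to 5349 in dKO-19), and lower in dKO-19M (5884 to 6146 against 6154 to 6596), while the basal markers KRT5, KRT14 and TP63 never exceeded 0.231 CPM. The 5 basal markers summed to 0.282 to 4.06 CPM, with the SNX631 libraries above the vehicle libraries in 6 of 8 arms (all but Rv1-WT FBS and dKO-19M), and NGFR and KRT15 made up most of it. The 6 neuroendocrine markers summed to 36.1 to 133 CPM, mostly SYP and CHGB, and were higher under SNX631, without overlap, in both media in Rv1-WT (101.5 to 109 against 84.0 to 88.1 CPM in FBS) and in Rv1-Luc FBS (116.8 to 133 against 104.7 to 110.6). They were lower in dKO-8 (48.5 to 52.6 against 55.5 to 56.4) and dKO-19M (36.1 to 39.6 against 41.0 to 50.1). The 11 stromal and immune markers summed to 3.74 to 25.8 CPM. Of these, the plasma cell genes IGKC and JCHAIN had counts in all Rv1-Luc libraries (18.17 to 195.25 and 8 to 88), whereas elsewhere IGKC had 0 and JCHAIN at most 2. The part of these markers in the results was not tested. The knockouts could not be checked from RNA, because transcripts of CDK8 and CDK19 are still counted from an edited gene. CDK8 averaged 26.8 CPM in Rv1-WT, 68.7 with re-expressed wild-type CDK8 and 123 with its kinase-dead form, and CDK19 averaged 149 CPM in Rv1-WT, 510.4 in dKO-19 and 332 in dKO-19M, all in FBS under vehicle. By Western blot the paper reports less CDK8 protein in dKO-8 than in parental cells, and more CDK19 protein in dKO-19 and dKO-19M. These RNA levels therefore do not stand for amounts of protein.

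KLK4 was by far the most abundant member. Per length, over the union of annotated exons in Rv1-WT FBS under vehicle, KLK4 stood at 62.5 CPM per kb, followed by KLK1 at 14.9, KLK2 at 2.8, KLK3 at 2.3, KLKP1 at 2.05, KLK11 at 1.67, KLK15 at 1.16 and KLK10 at 0.0981. Every member had counts in parental cells, though KLK10 had only 3 to 8 per library, and PSA was not the leading kallikrein RNA. Across the 16 groups the mean level of KLK4 ranged from 2.91 CPM in dKO-19M under vehicle to 212 CPM in Rv1-WT FBS under SNX631, a ratio of 72.6. The corresponding range was 0.567 to 17.9 CPM for KLK2, 0.453 to 10.7 for KLK3, 0.163 to 5.23 for KLKP1, 9.33 to 44.3 for KLK1 and 0.959 to 5.45 for KLK15. KLK10 never averaged more than 0.589 CPM, and in 7 groups, all of them dKO derivatives, none of its libraries exceeded 3 counts. KLK11 was at that floor in 7 groups too, also all dKO derivatives. The other 8 tissue kallikreins stayed below 1 CPM in every library (highest KLK14, 0.979 CPM), and only KLK13 and KLK14 had enough counts to be tested.

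**Figure D1:**
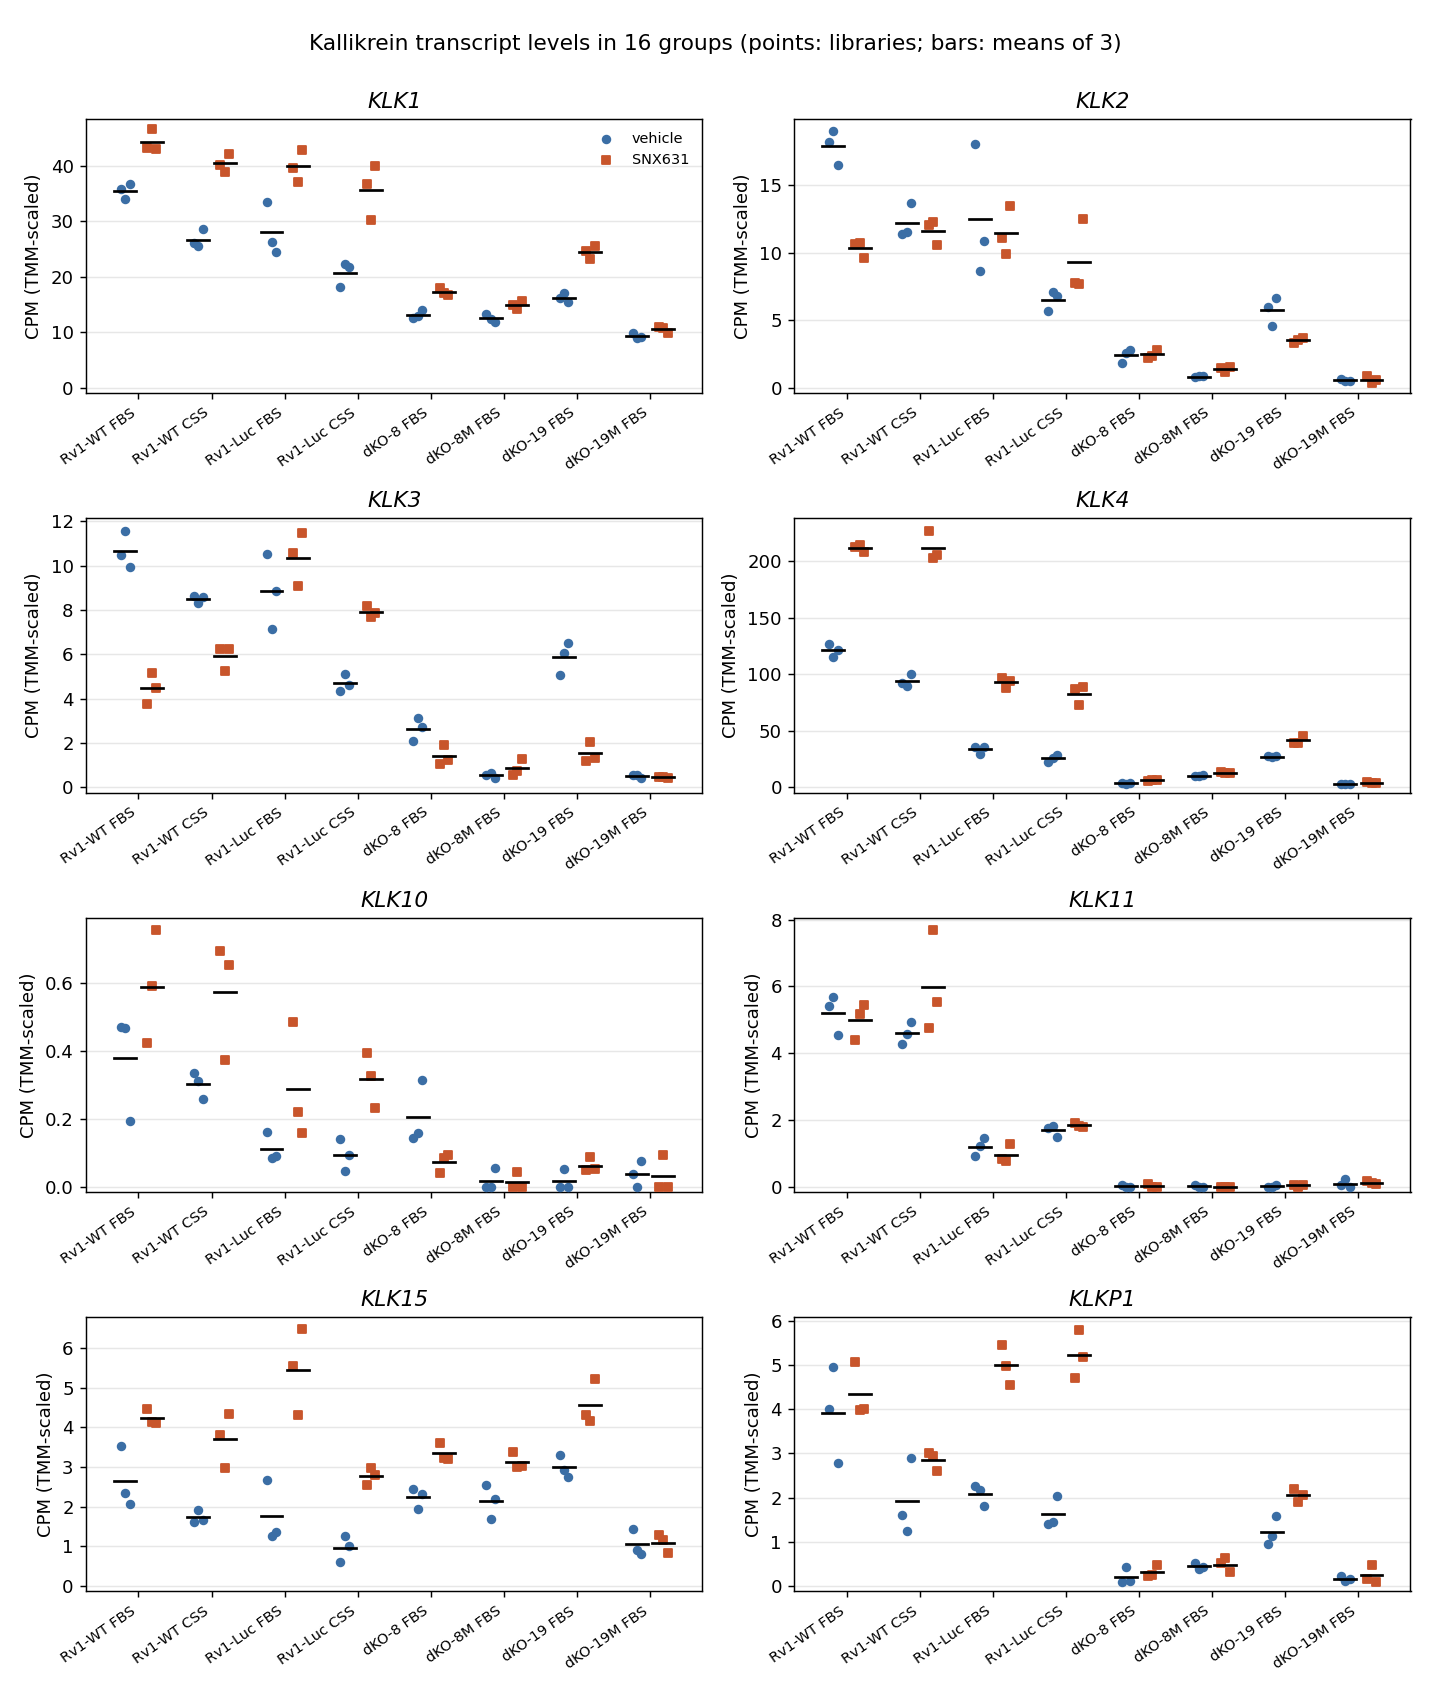
Levels of the 8 members in the 48 libraries, as TMM-scaled CPM, by group and treatment. Points are libraries and bars are means of 3; KLK4 under SNX631 in Rv1-WT reached 212 CPM, while KLK10 and KLK11 lay at the floor of 3 counts in 7 groups each.

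In parental cells in FBS, SNX631 moved the pair KLK3 and KLK2 and the more abundant KLK4 in opposite directions. In Rv1-WT FBS, the 3 vehicle libraries had 10.5, 11.6 and 9.93 CPM of KLK3, and the SNX631 libraries had 3.74, 5.16 and 4.48. The groups did not overlap, and KLK3 fell by 1.26 on the log2 scale (SE 0.152, FDR = 2.75e-09). In bulk cultures such as these, fewer cells with a transcript and less transcript per cell cannot be told apart. KLK2 went from 18.2, 19.0 and 16.5 CPM to 10.7, 10.7 and 9.6, again without overlap (−0.80 ± 0.176, FDR = 0.00113), but this call was lost without SNX631 replicate 3 (−0.75, FDR = 0.0119). The pair did not move together in every arm, and KLK2 had −0.07 ± 0.176 in Rv1-WT CSS (FDR = 0.82), −0.13 ± 0.163 in Rv1-Luc FBS (FDR = 0.638) and 0.03 ± 0.283 in dKO-8 (FDR = 0.974). KLK4 rose at the same time from 126.5, 115.5 and 121 CPM to 213, 214 and 208, a log2 fold change of 0.80 ± 0.061 (SE, FDR = 1.59e-15). In all, 3 of 8 members were called, 1 higher and 2 lower, where 2.39% of all genes were called. KLK1 passed the FDR but not the fold limit (0.31 ± 0.080, FDR = 0.00342), and KLK15 had 0.66 ± 0.212 (FDR = 0.0249).

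KLK3 was called lower under SNX631 in 3 of the 8 arms, Rv1-WT, dKO-8 and dKO-19 in FBS, and each of these lines carried a kinase-active CDK8 or CDK19. In dKO-19 the vehicle libraries had 5.04, 6.06 and 6.50 CPM of KLK3 and the SNX631 libraries 1.20, 2.06 and 1.33, the deepest drop of PSA in the series (−1.92 ± 0.185, FDR = 1.4e-12). KLK2 in the same arm went from 5.98, 4.57 and 6.63 CPM to 3.30, 3.52 and 3.69, without overlap but short of the call (−0.72 ± 0.229, FDR = 0.0205). In dKO-8 KLK3 had 2.06, 3.14 and 2.71 CPM under vehicle and 1.06, 1.91 and 1.23 under SNX631. These groups came close to each other, and the fall of KLK3 by 0.91 on the log2 scale (SE 0.213, FDR = 0.00152) was not called in 4 of the 6 fits that left out 1 library of the arm, where it lay between −1.21 and −0.73. In Rv1-WT CSS KLK3 was lower in 3 of 3 SNX631 libraries (6.25, 5.22 and 6.25 against 8.62, 8.30 and 8.60 CPM), but the difference stayed below the fold limit (−0.53 ± 0.144, FDR = 0.00382).

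In Rv1-Luc the inhibitor did not lower PSA. KLK3 in FBS had 10.5, 7.13 and 8.85 CPM under vehicle and 10.6, 9.06 and 11.5 under SNX631, with overlapping groups (0.23 ± 0.122, FDR = 0.206). In CSS KLK3 rose from 4.33, 5.10 and 4.62 CPM to 8.19, 7.70 and 7.88, and the groups were well apart (0.76 ± 0.141, FDR = 2.34e-05). KLK2 in CSS had 5.70, 7.13 and 6.79 CPM under vehicle and 7.80, 7.70 and 12.5 under SNX631, a difference that did not pass the test (0.52 ± 0.187, FDR = 0.0364). The response of KLK3 to SNX631 thus differed between Rv1-Luc and Rv1-WT, by 1.49 ± 0.196 in FBS (interaction, FDR = 4.49e-07) and by 1.29 ± 0.202 in CSS (FDR = 6.26e-06).

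KLK4, a protease of prostate and enamel, responded in the same direction in each line with a kinase-active enzyme. It rose under SNX631 in 6 of 6 such arms, with non-overlapping groups in each of them, and was not called in the 2 kinase-dead arms. In Rv1-Luc FBS it went from 35.6, 29.6 and 35.1 CPM to 96.6, 87.5 and 93.8 (1.47 ± 0.067, FDR = 6.87e-25). In Rv1-Luc CSS the vehicle libraries held 22.2, 25.8 and 28.3 CPM and the SNX631 libraries 87.0, 72.9 and 88.4, the largest fitted rise under SNX631 of any member outside the floor (1.71 ± 0.071, FDR = 8.53e-27). In Rv1-WT CSS KLK4 rose from 91.9, 89.4 and 100.4 CPM to 227, 202.5 and 205 (1.17 ± 0.062, FDR = 4.28e-22), so that both media ended near the same level. The response was 0.80 ± 0.145 in dKO-8 (FDR = 4.44e-05) and 0.61 ± 0.075 in dKO-19 (FDR = 4.09e-09). The value in dKO-19 sat just past the fold limit and was 0.54 when SNX631 replicate 3 was left out. KLK4 responded more in Rv1-Luc than in Rv1-WT in FBS, by 0.66 ± 0.091 (interaction, FDR = 1.52e-06), and by 0.54 ± 0.094 in CSS, below the fold limit (FDR = 5.6e-05).

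KLKP1, the pseudogene between KLK2 and KLK4, rose with KLK4 in Rv1-Luc but was not called in the other lines. In dKO-19 KLKP1 was higher under SNX631 too, without overlap but short of the call (0.942, 1.13 and 1.57 against 2.20, 1.89 and 2.05 CPM). Its level in Rv1-Luc FBS went from 2.27, 2.18 and 1.82 CPM to 5.45, 4.97 and 4.54 (1.25 ± 0.194, FDR = 9.72e-07), and in Rv1-Luc CSS from 1.41, 1.44 and 2.03 to 4.71, 5.80 and 5.17 (1.70 ± 0.205, FDR = 1.58e-09). In Rv1-WT FBS the groups overlapped, with 4.00, 4.95 and 2.79 CPM under vehicle and 5.07, 3.98 and 3.99 under SNX631 (0.16 ± 0.203, FDR = 0.691). The difference between the lines was 1.09 ± 0.282 in FBS (FDR = 0.0282) and 1.15 ± 0.318 in CSS (FDR = 0.0134) and was not called. KLKP1 and KLK4 also shared a counting feature. Fractional counts, which arise when a read is divided between genes, occurred for KLK4 in 23 libraries and for KLKP1 in 26, and the 23 libraries were among the 26. No other gene of the table coincided with KLK4 more often, although the v29 annotation used here gives both genes no shared exon and no shared 50-base stretch. How much of the KLKP1 count comes from such split reads was not tested.

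The neighbouring genes KLK1 and KLK15 had the direction of KLK4 under SNX631. KLK1 had a positive estimate in 8 of 8 arms and was called in Rv1-WT CSS (0.60 ± 0.081, FDR = 3.72e-08), Rv1-Luc CSS (0.79 ± 0.081, FDR = 9.11e-12) and dKO-19 (0.59 ± 0.088, FDR = 4.01e-07). In Rv1-Luc CSS its libraries held 18.1, 22.4 and 21.7 CPM under vehicle and 36.7, 30.3 and 39.99 under SNX631. The calls of KLK1 in Rv1-WT CSS and dKO-19 sat at the fold limit, and each was lost in 3 of 6 fits without 1 library while its FDR stayed at or below 2.41e-05. KLK15 rose in Rv1-WT CSS from 1.61, 1.92 and 1.66 CPM to 3.82, 2.99 and 4.35 (1.10 ± 0.227, FDR = 0.000121). In Rv1-Luc it rose by 1.60 ± 0.191 in FBS (FDR = 1.13e-09) and by 1.57 ± 0.247 in CSS (FDR = 1.15e-06). For KLK15 the FBS libraries of Rv1-Luc held 2.67, 1.26 and 1.36 CPM under vehicle and 5.54, 4.31 and 6.49 under SNX631, so that vehicle replicate 1 stood apart within its group but below every SNX631 library. Fractional counts occurred for KLK1 in 10 libraries and for KLK15 in 9, and 7 libraries had both. No other gene of the table coincided with KLK1 more often. How much of either count comes from split reads was not tested.

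KLK11 and KLK10, from the distal part of the locus, were called in 0 of 8 SNX631 comparisons, with an unadjusted p below 0.05 in 1 and 3 of them. DESeq2 called KLK11 in 0 and gave KLK10 no adjusted p. KLK11 in Rv1-WT FBS had a mean of 5.21 ± 0.599 CPM (SD, n = 3) under vehicle and 5.01 ± 0.539 under SNX631, and in Rv1-Luc FBS 1.20 ± 0.261 and 0.959 ± 0.275. In the dKO derivatives KLK11 had 0 to 6 counts per library in all 8 groups, and a change was not detectable there at this depth. KLK10 had 3 to 14 counts per library in Rv1-WT in FBS, with means of 0.378 ± 0.159 CPM under vehicle and 0.589 ± 0.166 under SNX631, and its response was not detectable at this depth.

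By arm, the counts of called members stood as follows. In Rv1-WT CSS 3 of 8 were called, all higher, against 4.23% of all genes. Rv1-Luc had 3 of 8 in FBS against 3.67% and 5 of 8 in CSS against 4.06%, all higher. dKO-8 had 2 of 8, 1 in each direction, against 1.71%, and dKO-19 had 3 of 8, 2 higher and 1 lower, against 3.41%. With kinase-dead enzyme, dKO-8M and dKO-19M had 0 of 8 by edgeR and by DESeq2, against 0.015% and 0.09% of all genes, and an unadjusted p below 0.05 in 3 and 0 of the 8 members. The median log2 fold change of the 8 members was 0.24 in Rv1-WT FBS, 0.57 in Rv1-WT CSS, 0.88 in Rv1-Luc FBS, 1.18 in Rv1-Luc CSS, 0.49 in dKO-8, 0.61 in dKO-19, 0.30 in dKO-8M and 0.10 in dKO-19M, while that of all genes tested lay within 0.01 of 0.

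**Figure D2:**
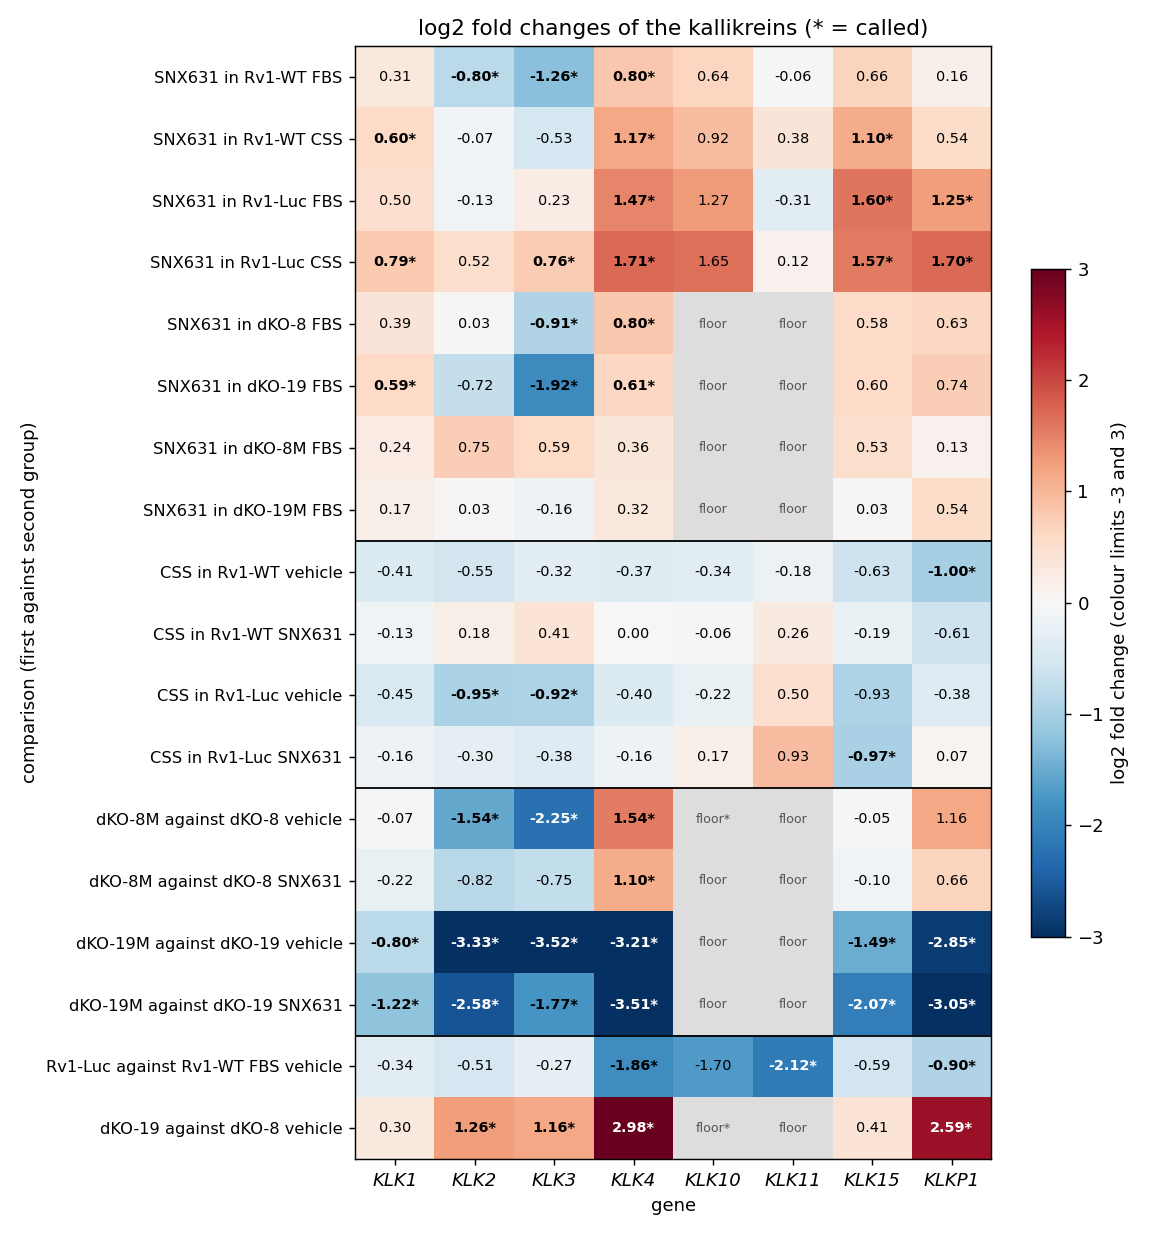
Log2 fold changes of the 8 members in the pairwise comparisons. An asterisk marks a call (FDR below 0.01 and fold change above 1.5), and cells with a group at the floor of 3 counts are written as floor; KLK4 is positive and called in 6 of 8 SNX631 rows, while KLK3 is negative and called in 3 and positive and called in 1.

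With kinase-dead CDK8 or CDK19 0 of 8 members were called under SNX631, and 0 of 8 had an FDR below 0.05. KLK3 in dKO-19M had 0.557, 0.552 and 0.409 CPM under vehicle and 0.479, 0.468 and 0.411 under SNX631. The dKO-8M line held 0.556, 0.634 and 0.428 CPM of it and then, with the inhibitor, 0.570, 0.706 and 1.28. Both pairs of groups overlapped. In dKO-8M KLK1, KLK2 and KLK15 lay higher under SNX631 without overlap, but short of the call. KLK1 had 14.25 to 15.56 against 11.87 to 13.21 CPM, and KLK2 1.16 to 1.54 against 0.785 to 0.855. KLK15 had 2.99 to 3.38 against 1.69 to 2.55 CPM. The estimates were positive for 7 of 8 members in dKO-8M and for 6 of 8 in dKO-19M. KLK4 in dKO-8M was higher in 3 of 3 SNX631 libraries (13.4, 12.4 and 12.8 against 10.1, 9.69 and 10.4 CPM) without passing the test (0.36 ± 0.100, FDR = 0.0891), and in dKO-19M it also lay above the vehicle range (4.47, 3.23 and 3.29 against 3.04, 2.64 and 3.05 CPM; 0.32 ± 0.165, FDR = 0.37). These differences were tested directly as interactions. For KLK3 the response in dKO-19 differed from that in dKO-19M by −1.76 ± 0.457 (FDR = 0.00606), the only member called, 1 of 8 against 2.07% of all genes. This call was lost in 7 of 12 fits without 1 library, with values between −2.05 and −1.60. For dKO-8 against dKO-8M 0 of 8 were called (background 0.905%; unadjusted p below 0.05 in 2, DESeq2 calls in 1), with KLK3 closest at −1.50 ± 0.396 (FDR = 0.0106). KLK4 gave 0.44 ± 0.178 (FDR = 0.142) for CDK8 and 0.29 ± 0.182 (FDR = 0.366) for CDK19, so a difference in its response between active and kinase-dead lines was not shown. Between dKO-19 and dKO-8, 0 of 8 responses were called different (background 0.885%, unadjusted p below 0.05 in 3, DESeq2 calls in 0), KLK3 being closest at −1.01 ± 0.293 (FDR = 0.0298).

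**Figure D3:**
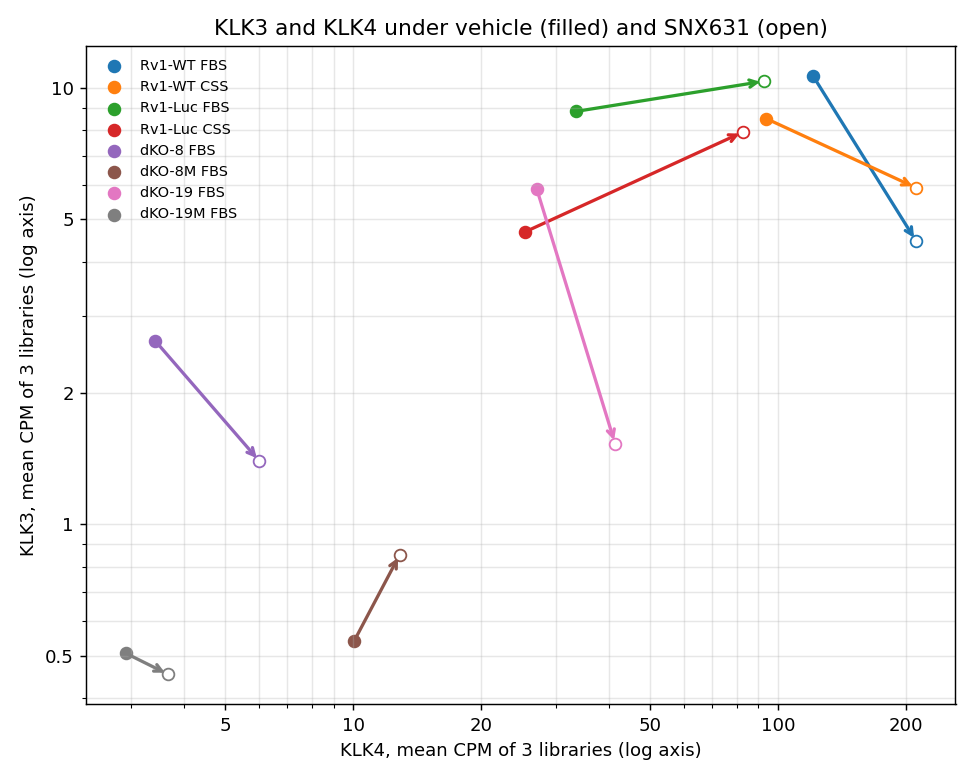
Mean KLK3 against mean KLK4, both as CPM on log axes, for the 8 arms. Each arrow runs from vehicle (filled) to SNX631 (open), and every arrow points toward more KLK4. Mean KLK3 drops in Rv1-WT, dKO-8, dKO-19 and dKO-19M and rises in Rv1-Luc and dKO-8M. In Rv1-WT CSS, Rv1-Luc FBS, dKO-8M and dKO-19M the change of KLK3 was not called.

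The remaining tests of the response compared media and lines. SNX631 by line called 2 of 8 members in FBS (KLK3 and KLK4, background 0.175%) and 1 of 8 in CSS (KLK3, background 1.12%). Vehicle replicate 1 of Rv1-Luc FBS stood apart, with 18.1 CPM of KLK2 against 8.68 and 10.9 in the other libraries and with 33.4 CPM of KLK1 against 26.3 and 24.5. Without it the FBS interaction called 4 of 8, adding KLK2 (1.04) and KLK15 (1.39), and KLK1 was called under SNX631 in Rv1-Luc FBS (0.65). The share of all genes called without that library is not given here, so these calls stand without a background. SNX631 by medium called 0 of 8 in Rv1-WT (background 0.295%) and 0 of 8 in Rv1-Luc (background 0.08%). In each line 4 of 8 had an unadjusted p below 0.05 and DESeq2 called 0. The estimates were nonetheless positive, meaning higher response values in CSS, for 8 of 8 members in Rv1-WT, including KLK3 at 0.74 ± 0.212 (FDR = 0.0363) and KLK4 at 0.37 ± 0.087, which passed the FDR (0.00801) but not the fold limit. These comparisons share libraries with those above and are not separate evidence.

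Growth in CSS, the medium that withdraws androgen, lowered few members past the limits. In Rv1-WT under vehicle 1 of 8 was called, against 10.9% of all genes, and 0 of 8 had a positive estimate. The called member was KLKP1, with 4.00, 4.95 and 2.79 CPM in FBS and 1.61, 1.24 and 2.90 in CSS, groups that overlapped (−0.998 ± 0.228, FDR = 0.000226). KLK2 had 18.2, 19.0 and 16.5 CPM in FBS and 11.4, 11.5 and 13.7 in CSS, a separation below the fold limit (−0.55 ± 0.170, FDR = 0.00746), and KLK3 was not called (−0.32 ± 0.135, FDR = 0.0448). KLK3, KLK15, KLK4 and KLK1 were lower in CSS without overlap, also without a call. KLK3 had 8.30 to 8.62 against 9.93 to 11.58 CPM, and KLK15 1.61 to 1.92 against 2.08 to 3.53. KLK4 had 89.4 to 100.4 against 115.5 to 126.5 CPM, and KLK1 25.47 to 28.55 against 34.08 to 36.72. In Rv1-Luc under vehicle 2 of 8 were called, against 1.49%, and both classic androgen targets were lower. KLK3 went from 10.5, 7.13 and 8.85 CPM to 4.33, 5.10 and 4.62 (−0.92 ± 0.137, FDR = 1.05e-06) and KLK2 from 18.1, 8.68 and 10.9 to 5.70, 7.13 and 6.79 (−0.95 ± 0.177, FDR = 0.00016). For KLK2 this rested in part on vehicle replicate 1 in FBS, without which it was −0.59 (FDR = 0.00554), and it was not called when only the libraries of the comparison were fitted (−0.96, FDR = 0.152). KLK4 and KLK1 were again lower in CSS without overlap and without a call. KLK4 had 22.2 to 28.3 against 29.6 to 35.6 CPM, and KLK1 18.1 to 22.4 against 24.5 to 33.4. The effect of CSS was not shown to differ between the lines, with 0 of 8 members called by edgeR and by DESeq2 against 8.65% of all genes, and an unadjusted p below 0.05 in 2. KLK3 was closest to the limit at −0.60 ± 0.193 (FDR = 0.0114).

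Under SNX631 the same contrast of media called 1 member in all. In Rv1-WT 0 of 8 were called by edgeR and by DESeq2, against 7.83%, with an unadjusted p below 0.05 in 2, and KLK4 was level at 212 CPM in both media (FDR = 0.998). In Rv1-Luc 1 of 8 was called, against 1.51%. That member was KLK15, which had 5.54, 4.31 and 6.49 CPM in FBS and 2.55, 2.97 and 2.796 in CSS (−0.97 ± 0.180, FDR = 7.54e-05).

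Most kallikreins stood far lower with kinase-dead than with wild-type CDK19. In dKO-19M against dKO-19 under vehicle 6 of 8 members were called, all lower, against 7.6% of all genes. KLK3 had 5.04, 6.06 and 6.50 CPM in dKO-19 and 0.557, 0.552 and 0.409 in dKO-19M (−3.52 ± 0.220, FDR = 2.78e-20). KLK2 had 5.98, 4.57 and 6.63 CPM and 0.668, 0.513 and 0.521 (−3.33 ± 0.316, FDR = 3.39e-11). KLK4 had 27.2, 26.2 and 27.7 CPM and 3.04, 2.64 and 3.05 (−3.21 ± 0.111, FDR = 9.22e-31). KLK4 thus was lower with kinase-dead CDK19 although SNX631 raised it in dKO-19. KLKP1 (−2.85 ± 0.413, FDR = 8.88e-08), KLK15 (−1.49 ± 0.232, FDR = 4.8e-07) and KLK1 (−0.80 ± 0.098, FDR = 1.27e-09) were lower as well. The same 6 were called lower under SNX631, 6 of 8 against 7.18%, from −1.22 ± 0.095 for KLK1 to −3.51 ± 0.107 for KLK4. No library of dKO-19M reached the range of dKO-19 for these 6 genes under either treatment. Vehicle replicate 1 of dKO-19M differed most from its group of all libraries (chi-square per degree of freedom 17.7 and 17.1 against the other replicates, which had 1.45 between them), and without it KLK3 was at −3.61, KLK2 at −3.47, KLK4 at −3.25, KLKP1 at −3.14, KLK15 at −1.79 and KLK1 at −0.85, all called. The KLK3 interaction between dKO-19 and dKO-19M was then −1.84 (FDR = 0.00706). Kinase-dead CDK19 RNA was itself less abundant than wild-type (332 against 510.4 CPM), so that kinase activity, amount of transgene and differences between the cell populations cannot be told apart here.

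In the CDK8 lines KLK4 went the other way. In dKO-8M against dKO-8 under vehicle 4 of 8 were called, against 7.03%, and KLK4 was higher. KLK4 had 3.55, 3.03 and 3.65 CPM with wild-type CDK8 and 10.1, 9.69 and 10.4 with the kinase-dead form (1.54 ± 0.131, FDR = 1.66e-14). KLK3 fell from 2.06, 3.14 and 2.71 CPM to 0.556, 0.634 and 0.428 (−2.25 ± 0.259, FDR = 1.9e-10), and KLK2 from 1.82, 2.56 and 2.79 to 0.785, 0.846 and 0.855 (−1.54 ± 0.356, FDR = 0.000727). KLK3 and KLK2 were thus lower and KLK4 higher with kinase-dead CDK8, the directions that SNX631 gave in Rv1-WT FBS. In dKO-8 itself SNX631 gave these directions for KLK3 and KLK4 but not for KLK2, which averaged 2.391 CPM under vehicle and 2.475 under SNX631. The fourth member, KLK10, rested on 14 counts with wild-type CDK8 against 1 with kinase-dead, over 3 libraries each, a ratio of 15.6 with an exact 95% interval of 2.37 to 660 for counting error only, and its call was lost in 3 of 6 fits without 1 library. Under SNX631 only KLK4 was called, 1 of 8 against 5.05% (1.10 ± 0.111, FDR = 8.03e-12). CDK8 RNA was itself more abundant with the kinase-dead form (123 against 68.7 CPM), so that kinase activity, amount of transgene and differences between cell populations cannot be told apart.

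**Figure D4:**
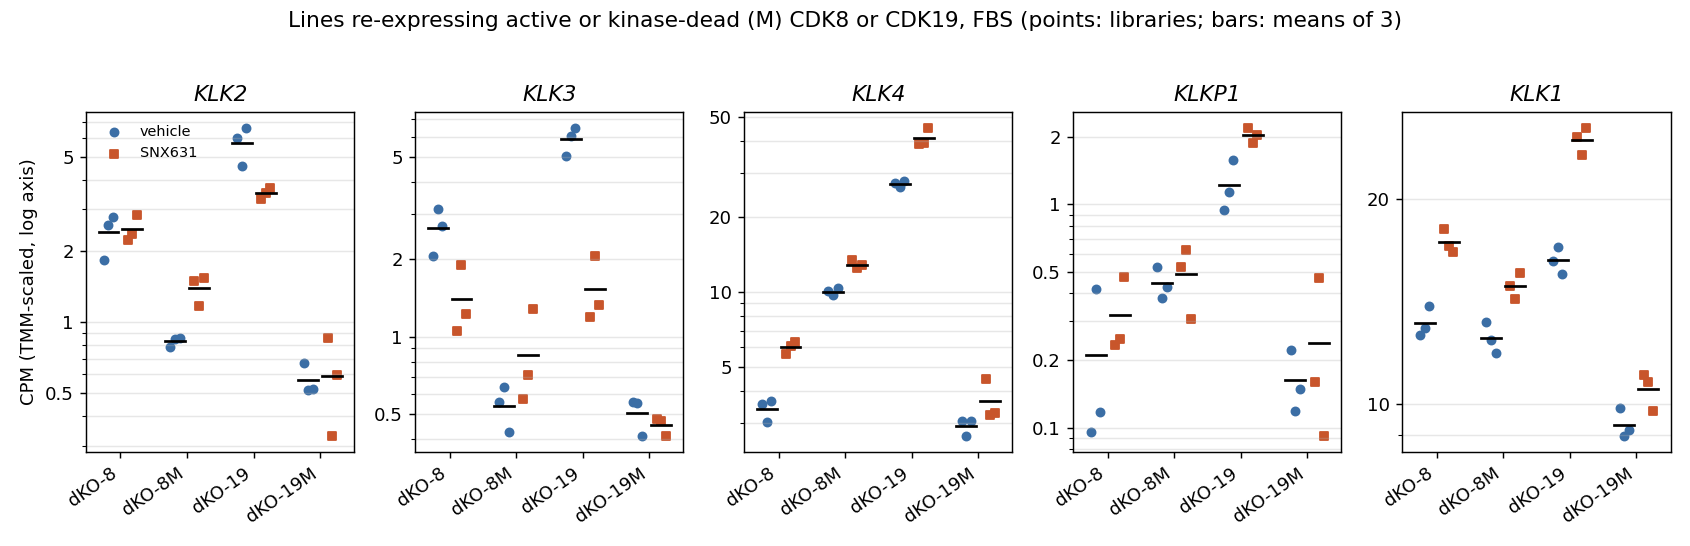
Levels of KLK2, KLK3, KLK4, KLKP1 and KLK1 (CPM, log axes) in the lines with wild-type or kinase-dead (M) CDK8 or CDK19, under vehicle and SNX631. Points are libraries and bars means of 3; all genes shown lie lower with kinase-dead than with wild-type CDK19, whereas KLK4 lies higher with kinase-dead CDK8.

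The lines also differed in their basal kallikrein levels. In dKO-19 against dKO-8 under vehicle 5 of 8 members were called, against 6.51% of all genes. KLK4 was higher in dKO-19 by 2.98 ± 0.113 (27.1 against 3.41 CPM, FDR = 8.29e-29), KLKP1 by 2.59 ± 0.419 (FDR = 1.17e-06), KLK2 by 1.26 ± 0.245 (FDR = 8.16e-05) and KLK3 by 1.16 ± 0.166 (FDR = 7.14e-08). KLK10 had 1 count in dKO-19 and 14 in dKO-8, a ratio of dKO-8 to dKO-19 of 13.6 (exact 95% interval 2.07 to 575), and this call too was lost in 3 of 6 such fits. In Rv1-Luc against Rv1-WT in FBS under vehicle 3 of 8 were called, all lower, and the background was high at 17.8%. KLK4 was at 33.4 against 121 CPM (−1.86 ± 0.068, FDR = 5.56e-30), KLK11 at 1.20 against 5.21 CPM (−2.12 ± 0.222, FDR = 5.67e-12) and KLKP1 at 2.09 against 3.91 CPM (−0.90 ± 0.215, FDR = 0.00035). The call of KLKP1 was lost without Rv1-WT vehicle replicate 2 (−0.71, FDR = 0.0133). Without Rv1-Luc vehicle replicate 1, KLK2 (−0.88) and KLK15 (−1.03) were called too, making 5 of 8. The background of 17.8% belongs to the full fit, and the share of all genes without that library is not given here. KLK3 did not pass the test between these lines (−0.27 ± 0.129, FDR = 0.0763).

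Ordered by level, the members fell into different sequences of groups. For KLK4 the Rv1-WT groups under SNX631 in FBS and CSS came first and overlapped (212 CPM each), followed at a distance by Rv1-WT FBS and then CSS under vehicle (121 and 93.9 CPM), and 9 of the 15 neighbouring pairs had ranges that did not overlap. At its lower end dKO-19M under SNX631, dKO-8 under vehicle and dKO-19M under vehicle (3.66, 3.41 and 2.91 CPM) were not separated. KLK3 was led by Rv1-WT FBS under vehicle, Rv1-Luc FBS under SNX631, Rv1-Luc FBS under vehicle and Rv1-WT CSS under vehicle (10.7, 10.4, 8.83 and 8.51 CPM), among which neighbours overlapped. The 4 kinase-dead groups held the last 4 places for both KLK3 and KLK2, at 0.453 to 0.852 and 0.567 to 1.397 CPM. KLK2 began with Rv1-WT FBS under vehicle, and its first 7 groups, all Rv1-WT or Rv1-Luc, overlapped from neighbour to neighbour (17.9 to 9.33 CPM). KLK1 had its 4 highest groups under SNX631 in Rv1-WT and Rv1-Luc (44.3 to 35.7 CPM) and 6 of 15 neighbouring pairs apart. KLK15 ran almost without a break from 5.45 CPM in Rv1-Luc FBS under SNX631 to 0.959 in Rv1-Luc CSS under vehicle, with 1 separated pair, and its 6 highest groups were all under SNX631. KLKP1 had 2 pairs apart and KLK10 none. KLK11 was ordered by line, with the 4 Rv1-WT groups (4.60 to 5.99 CPM) above the 4 Rv1-Luc groups (0.959 to 1.83 CPM) above the dKO groups (0 to 0.115 CPM), and these steps were separated. The dKO groups were not tested against Rv1-WT or Rv1-Luc.

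The 16 group means of log2 CPM share lines and libraries and are not independent. Over them KLK2 and KLK3 were the pair of members most alike (Pearson r 0.968, Spearman rho 0.941). Next by r were KLK4 and KLKP1 (r 0.95, rho 0.897), the pair with shared fractional counts. KLK1 with KLK4 (r 0.947, rho 0.935) and KLK1 with KLKP1 (r 0.947, rho 0.924) were close behind in r and higher in rho. KLK11 and KLK15 were least alike (r 0.0644). Among 14050 other genes with a mean of at least 1 CPM, the gene closest to KLK2 was STAT5A (r 0.964, rho 0.906), the closest to KLK3 was ANKRD29 (r 0.936, rho 0.888) and the closest to KLK4 was PRSS23, another serine protease gene (r 0.972, rho 0.985). RIMS1 was closest to KLK1 (r 0.972), CKMT1B to KLKP1 (r 0.962), REEP3 to KLK15 (r 0.875) and IL1R1 to KLK11 (r 0.99, rho 0.826). Without the 2 groups farthest from the member's median, r stayed between 0.781 (REEP3) and 0.987 (IL1R1). The next in order were SCG3 and LGALS1 for KLK2, USP2 and SRMS for KLK3, RFK and RNASEH1 for KLK4, DYNLT3 and ZDHHC8P1 for KLK1, YOD1 and ID2 for KLKP1, RNF43 and AMACR for KLK15, and CX3CL1 and MFAP2 for KLK11. These are descriptions over few groups.

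Other androgen-responsive genes were read from a list of 25, of which 24 were tested. Under CSS and vehicle, 10 were lower in Rv1-WT and 8 in Rv1-Luc, and 0 were higher, where 10.9% and 1.49% of all genes were called. STEAP1, a metalloreductase-family gene of prostate cells, had the lowest p in both lines (−1.69 ± 0.074 and −1.54 ± 0.063). FKBP5, an androgen-induced co-chaperone, was lower in both (−0.84 ± 0.044 and −0.86 ± 0.045), as was STEAP2 in Rv1-Luc (−1.44 ± 0.058). Under SNX631 the list had calls in both directions. In Rv1-WT 3 genes rose and 1 fell in FBS (2.39% of all genes called), and 8 rose and 1 fell in CSS (4.23%), and in Rv1-Luc 2 rose and 2 fell in FBS (3.67%) and 4 rose and 2 fell in CSS (4.06%). The counts were 2 higher and 1 lower in dKO-8 (1.71%), 2 higher and 3 lower in dKO-19 (3.41%), 0 in dKO-8M (0.015%, with 5 of the list at an unadjusted p below 0.05 and 0 by DESeq2) and 1 lower in dKO-19M (0.09%). TMPRSS2, a membrane serine protease, rose in 6 of 6 kinase-active arms (1.30 ± 0.081 in dKO-8 to 2.13 ± 0.086 in dKO-19), as KLK4 did. SLC45A3, known as prostein, fell in Rv1-WT FBS (−1.33 ± 0.087), Rv1-Luc FBS (−1.31 ± 0.069), Rv1-Luc CSS (−1.03 ± 0.082), dKO-8 (−0.93 ± 0.089) and dKO-19 (−2.21 ± 0.092). SLC45A3 thus fell in Rv1-Luc too, where KLK3 was not called lower. The median over the list was between −0.13 and 0.42 in the SNX631 comparisons, beside medians within 0.01 of 0 over all genes.

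Of 17 tested regulators of kallikrein transcription (transcription factors, pioneer factors and coregulators), few were called. GATA2, a pioneer factor, rose under SNX631 in Rv1-Luc CSS (0.72 ± 0.143) and dKO-19 (0.76 ± 0.149), 1 of 17 in each against 4.06% and 3.41% of all genes. Of the 17, 0 were called in the other 6 SNX631 comparisons, where 2 to 11 had an unadjusted p below 0.05 and DESeq2 called 1 in Rv1-WT CSS. In CSS 4 of 17 rose in Rv1-WT under vehicle, against 10.9% of all genes, among them the glucocorticoid receptor gene NR3C1 (0.92 ± 0.063) and the coactivators CREBBP (0.89 ± 0.070) and NCOA3 (0.61 ± 0.066), and 0 were called in Rv1-Luc (against 1.49%, 5 at an unadjusted p below 0.05, 0 by DESeq2). With kinase-dead enzyme under vehicle HOXB13, a prostate homeobox factor, was higher in both pairs (0.68 ± 0.039 for CDK8 and 0.62 ± 0.039 for CDK19), and SPDEF, an ETS factor of luminal epithelium, was lower in the CDK8 pair (−0.79 ± 0.047). These are lists written with earlier results known, and the counts describe them only.

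Genes for activators, inhibitors and substrates of kallikreins numbered 26, with 16 tested. Under SNX631 4 rose and 1 fell in Rv1-WT FBS (background 2.39%), 5 rose and 1 fell in Rv1-WT CSS (4.23%), 5 rose in each medium in Rv1-Luc (3.67% and 4.06%), 1 rose in dKO-8 (1.71%), 2 rose in dKO-19 (3.41%) and 0 were called in the kinase-dead lines (0.015% and 0.09%, with 1 in each at an unadjusted p below 0.05 and 0 by DESeq2). Besides TMPRSS2, fibronectin (FN1) rose in Rv1-WT FBS (1.78 ± 0.103) and CSS (1.93 ± 0.100) and in Rv1-Luc FBS (1.30 ± 0.135) and CSS (1.66 ± 0.181). A2M, the broad protease inhibitor alpha-2-macroglobulin, rose in Rv1-WT FBS (1.72 ± 0.296) and CSS (1.46 ± 0.236). PTHLH, the parathyroid hormone-related protein cut by KLK3, fell under SNX631 in Rv1-WT FBS (−1.09 ± 0.140) and rose in Rv1-Luc FBS (1.02 ± 0.207), with a difference between the lines of 2.12 ± 0.249 (FDR = 2.14e-08). It rose most in dKO-19 (2.71 ± 0.171, FDR = 9.2e-20), the arm in which KLK3 fell most. HPN (hepsin) was lower with kinase-dead than with wild-type CDK8 under vehicle (−1.43 ± 0.109), and SPINK1, a trypsin inhibitor, was lower in Rv1-Luc than in Rv1-WT (−5.01 ± 0.112). Around the locus 4 neighbours were tested, of which C19orf48 rose under SNX631 in Rv1-WT CSS (0.66 ± 0.062), Rv1-Luc FBS (0.67 ± 0.061) and Rv1-Luc CSS (0.72 ± 0.061), while SHANK1, CTU1 and CLEC11A were called in 0 of 8 SNX631 comparisons by edgeR and by DESeq2, with an unadjusted p below 0.05 in 3, 3 and 2 of them.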

How the data were processed

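RNA from 48 cultures was sequenced with a directional library kit. The deposited table holds the authors' counts per gene, which are fractional expected counts without normalization, and 81.6% of its non-zero values were whole. Per the submitters' processing notes, cutadapt 2.8, STAR 2.7.2b and featureCounts of Subread 2.0.3 were used, and GRCh38.p13 and GRCm39 are named as builds. How shared reads were divided, the strand setting and the annotation release are not given in the sources used here. Multi-gene reads can move counts between overlapping genes.

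Counts were rounded, and 2 transgene rows (luciferase and a resistance gene) were left out. edgeR 4.0.16 (R 4.3.3) was run with TMM scaling (factors 0.911 to 1.07), a filter on low counts (minimum count 10, minimum total 15) and a robust quasi-likelihood fit of 16 group means over 48 libraries, which left 32 residual degrees of freedom. Calls needed an FDR below 0.01 over the genes tested in a comparison and a fold change above 1.5. The SE is the absolute log2 fold change divided by the square root of F. Replicates are labelled as biological triplicates, and replicate pairs differed by more than sampling noise (chi-square per degree of freedom 1.28 to 17.7). A group whose 3 libraries held at most 3 counts was at the floor. Intervals on counts are exact Clopper-Pearson intervals and cover counting error only. Promoters came from RefSeq windows, aligned with Biopython 1.88. Figures were drawn with matplotlib 3.10.9.

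All 8 members are named, and from each list at most 4 called genes of lowest p per comparison, with CDK8 and CDK19 (1 further gene is not reported here); the most similar genes are the 3 of highest r over group means. Members and lists were chosen with earlier results of these data known. Alternatives were DESeq2 1.42.0, other scalings, no filter, other limits, a replicate block, thinning, separate fits and leaving out each library. Same-numbered replicates were not paired by the labels, and the deviations from the group means correlated above 0.1 in 18 of 54 pairs; in SNX631 in dKO-19M alone every pair did.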

Additional observations from a re-analysis of the deposited data

Results flagged for a closer look

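The response of KLK3 to SNX631 differed between Rv1-Luc and Rv1-WT by 1.49 (SE 0.196, edgeR FDR = 4.49e-07) in FBS and by 1.29 (SE 0.202, FDR = 6.26e-06) in CSS, both log2 values from a test of the difference. It was lower under SNX631 in 3 of 3 Rv1-WT libraries in either medium and higher in 3 of 3 Rv1-Luc libraries in CSS. Leaving out single libraries gave 1.36 to 1.64 in FBS and 1.21 to 1.36 in CSS.

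KLK4 responded more in Rv1-Luc than in Rv1-WT in FBS, by 0.66 (SE 0.091, FDR = 1.52e-06), and rose in both lines. The response of KLK3 in dKO-19 differed from that in dKO-19M by −1.76 (SE 0.457, FDR = 0.00606), where dKO-19M held 9 to 15 counts of KLK3 per library. The cause of these differences was not tested.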

How the results depend on the processing

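Counts of called members are out of 8. Under DESeq2-type size factors and under library size alone, CSS in Rv1-Luc under SNX631 gave 2, and library size alone gave 1 for CSS by line. Among all genes, CSS in Rv1-Luc under SNX631 had 305 calls in either setting, and CSS by line had 1741 with library size alone. Without the filter on low counts there were 1 for CSS in Rv1-WT under SNX631, 2 for CSS in Rv1-Luc under SNX631, 2 for dKO-8M against dKO-8 under SNX631, 1 for SNX631 by medium in each of Rv1-WT and Rv1-Luc, 4 for SNX631 by line in FBS and 3 in CSS, 1 for dKO-8 against dKO-8M and 1 for CSS by line. In the same order, the calls among all genes were 1570, 330, 1038, 85, 50, 73, 269, 218 and 1746. With an FDR limit of 0.05 and no fold limit, SNX631 called 5 in Rv1-WT FBS, 4 in each of Rv1-WT CSS, Rv1-Luc FBS and dKO-8, 7 in Rv1-Luc CSS and 6 in dKO-19; CSS called 6 and 2 in Rv1-WT and 5 and 3 in Rv1-Luc (vehicle and SNX631); dKO-8M against dKO-8 under SNX631 gave 2, Rv1-Luc against Rv1-WT 7, SNX631 by medium in Rv1-WT 2, by line 3 in FBS and 3 in CSS, dKO-19 against dKO-8 under vehicle 6 and, for responses, dKO-8 against dKO-8M 1, dKO-19 against dKO-19M 2, dKO-19 against dKO-8 1 and CSS by line 1. Thinned to the smallest library, dKO-8 gave 1 and dKO-19 against dKO-19M 0. Calls among all genes after thinning are not given here. With only the libraries of a comparison, SNX631 in dKO-19 gave 6, CSS in Rv1-WT under SNX631 1, CSS in Rv1-Luc under vehicle 1, dKO-8M against dKO-8 under SNX631 2, SNX631 by medium in Rv1-WT 2, dKO-8 against dKO-8M 1, dKO-19 against dKO-19M 0 and CSS by line 1. In the same order, these fits called 715, 1523, 198, 1065, 87, 299, 359 and 1637 of all genes. DESeq2 gave 3 for CSS in Rv1-Luc under vehicle (adding KLK15), 2 for it under SNX631 and 1 for dKO-8 against dKO-8M. It gave 3 for dKO-8M against dKO-8 and 4 for dKO-19 against dKO-8, both under vehicle, where KLK10 had no adjusted p. In the same order, DESeq2 called 275, 276, 183, 1314 and 1217 of all genes in these comparisons.

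The replicate block, which pairs same-numbered libraries, gave 2 for CSS in Rv1-Luc under SNX631, where it called 304 of all genes. It changed no other count of members. Pairwise correlations of replicates ran from −0.211 to 0.454.

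Leaving out single libraries gave 2 to 4 called members for SNX631 in Rv1-WT FBS and in Rv1-WT CSS, 1 to 2 in dKO-8 and 1 to 3 in dKO-19, 1 to 2 for CSS in Rv1-WT under vehicle and in Rv1-Luc under SNX631, 2 to 5 for Rv1-Luc against Rv1-WT, 1 to 2 for dKO-8M against dKO-8 under SNX631, 2 to 4 for SNX631 by line in FBS and 1 to 3 in CSS, and 0 to 1 for dKO-8 against dKO-8M, dKO-19 against dKO-19M, dKO-19 against dKO-8 and CSS by line. Calls among all genes in these fits are not given here. Of 746 values of called members under all alternatives, 710 stayed called, 36 did not and 0 changed sign. The 710 include 52 values at the FDR limit of 0.05 without a fold limit, under which no call can be lost. DESeq2, thinning and separate fits had 50 values each, where the other whole-data settings had 52. Calls without a result there, such as KLK10 under DESeq2, were left out and are not among the 36. The cause of the lost calls was not tested.

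Levels near the floor set the limits: KLK10 everywhere, KLK11 in the dKO lines, and KLK2, KLK3 and KLKP1 in the kinase-dead lines rest on few counts, so that a response not called there cannot be taken as absent. KLK10 against dKO-8 and KLK3, KLK11, KLK15 and KLKP1 at low counts have the widest errors, and a comparison between Rv1-WT or Rv1-Luc and the dKO lines was not made.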
